A study of Mus musculus with 18 samples.

Results

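The 31 genes described here encode the constitutive proteasome: the 14 subunits of the 20S core particle and 17 subunits of the 19S regulatory particle. They were taken from the count table by symbol, without the immunoproteasome subunits, and all 31 were found among its 24421 listed genes. All 31 also passed the filter on low counts, which kept 13507 genes. RNA had been sequenced from 4T1 cells, a mouse mammary carcinoma line of strain BALB/cfC3H labelled wild type, and from 4T1R1 and 4T1R2, populations selected separately from 4T1 for growth after exposure to 17-DMAG. Neither resistant population is labelled a clone. Each was sampled untreated and after 1.5 µM 17-DMAG, an inhibitor of the chaperone HSP90, in 3 libraries per group and 18 libraries in all. The sample records give 48 h of exposure and the description of the whole series gives 2 h, so the time of treatment is not settled here.

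The proteasome degrades proteins that carry chains of ubiquitin. Alpha subunits form the outer rings of the core and gate its entry, and beta subunits form the inner rings, where PSMB5, PSMB6 and PSMB7 hold the chymotrypsin-like, caspase-like and trypsin-like active sites. The base of the 19S particle has a ring of ATPases, PSMC1 to PSMC6, that unfold substrates, together with the scaffolds PSMD1 and PSMD2 and the ubiquitin receptor PSMD4, while the lid carries the deubiquitinase PSMD14 held by scaffold subunits. Proteasome genes are known targets of the transcription factor NRF1, encoded by Nfe2l1, and HSP90 inhibitors are known to send client proteins to the proteasome.

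Library totals ran from 23354461 to 55094630 counts. Libraries 1 and 2 of treated 4T1 differed by little more than sampling noise and entered as 1 averaged sample, so treated 4T1 had n = 2 and every other group n = 3. The names of the 4T1R1 libraries form a block of numbers apart from all the others, and the labels name no sequencing or preparation run. If the block stands for such a run, it and the difference of 4T1R1 from the other populations cannot be told apart. Untreated and treated libraries also have separate stretches of numbers, so the names do not show whether a response to 17-DMAG lies within a run. The numbers of untreated 4T1 and untreated 4T1R2 adjoin. All 7 epithelial markers were present in every library, from Krt18 with 13634 to 25357 normalized counts to Cldn4 with 106 to 981. Of 16 markers of fibroblasts, leukocytes and endothelium, 14 had at most 20 normalized counts in every library, and the exceptions were Pdgfra with 375 to 1027 and Cd68 with 118 to 207. Pdgfra was lower in treated 4T1, at 375 and 396, than in untreated 4T1, at 667 to 741, and its part in the results was not tested. In these bulk samples fewer cells expressing a gene and less RNA per cell cannot be told apart.

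Promoter sequence is shown for the 3 members whose transcripts rose the most in 4T1 and for Psmb5 and Psmb6. These catalytic subunits were called lower in 4T1R1, close to the threshold. The RefSeq promoter table for GRCm38.p6 held 25 of the 31 members and lacked Psmb1, Psmb2, Psmb7, Psmc3, Psmd3 and Psmd7. Each line gives the 250 bases before the start site, 5′ to 3′ on the strand of the gene, and capitals mark matches on either strand to TGACNNNGC, the core of the antioxidant response element, to CCAAT, the NF-Y box, or to GAANNTTC or TTCNNGAA, the units of the heat shock element. The windows lie at chr11:80428365-80428614 (plus strand) for Psmd11, chr5:21785025-21785274 (plus) for Psmc2, the first of the 2 windows this gene has in the table, chr7:114276117-114276366 (minus) for Psma1, chr14:54617996-54618245 (minus) for Psmb5 and chr11:70525107-70525356 (plus) for Psmb6.
Psmd11: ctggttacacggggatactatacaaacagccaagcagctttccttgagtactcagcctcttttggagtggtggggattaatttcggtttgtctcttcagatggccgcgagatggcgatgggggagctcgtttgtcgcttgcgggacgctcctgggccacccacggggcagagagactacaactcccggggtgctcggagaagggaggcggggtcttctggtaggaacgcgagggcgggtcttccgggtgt
Psmc2: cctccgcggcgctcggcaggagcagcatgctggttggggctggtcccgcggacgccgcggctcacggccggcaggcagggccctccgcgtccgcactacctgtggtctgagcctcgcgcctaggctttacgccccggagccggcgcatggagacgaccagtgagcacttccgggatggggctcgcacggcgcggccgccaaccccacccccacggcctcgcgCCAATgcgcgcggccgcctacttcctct
Psma1: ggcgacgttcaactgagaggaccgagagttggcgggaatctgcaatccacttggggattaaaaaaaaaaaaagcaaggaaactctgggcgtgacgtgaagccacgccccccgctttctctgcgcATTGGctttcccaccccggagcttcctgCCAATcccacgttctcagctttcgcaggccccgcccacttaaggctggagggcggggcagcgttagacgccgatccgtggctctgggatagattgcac
Psmb5: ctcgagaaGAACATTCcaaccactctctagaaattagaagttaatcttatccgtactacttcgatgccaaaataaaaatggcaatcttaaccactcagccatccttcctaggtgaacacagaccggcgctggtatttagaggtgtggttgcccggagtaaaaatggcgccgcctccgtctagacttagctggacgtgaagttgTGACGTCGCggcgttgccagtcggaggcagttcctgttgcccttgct
Psmb6: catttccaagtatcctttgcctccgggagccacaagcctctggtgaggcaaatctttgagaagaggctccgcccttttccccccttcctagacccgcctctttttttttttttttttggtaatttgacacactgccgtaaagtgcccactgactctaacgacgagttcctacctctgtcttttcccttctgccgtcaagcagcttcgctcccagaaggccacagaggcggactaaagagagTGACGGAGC

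Position -1 is the base before the start site. The NF-Y box began at position -28 in Psmc2 and at positions -126 and -98 in Psma1, and no match to the motifs was found in the Psmd11 window or in the other Psmc2 window, at chr5:21786497-21786746 (plus). The antioxidant response element core began at -47 in Psmb5 and at -9 in Psmb6, and a heat shock element unit began at -242 in Psmb5. Counted over windows that run on to 50 bases after the start site, and with a gene counted once where it has several, 4 of the 25 members held TGACNNNGC (16% against 14% of 27025 genes in the table), 10 held CCAAT (40% against 41.1%) and 2 held a heat shock element unit (8% against 17%). The members' shares of the first 2 motifs were thus close to those of all promoters of this length. These matches are a description of the windows and not of binding.

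In 4T1 the transcripts of the proteasome rose together after 17-DMAG. Of the 31 members, 29 were higher and 0 lower by edgeR's quasi-likelihood test (adjusted p under 0.05 over all genes tested), against 18.4% of all genes called higher and 17.9% called lower. No member was lower at an unadjusted p under 0.05 or by DESeq2, which called 29 higher. The fold changes were small and alike: the median log2 fold change was 0.27, a 1.21-fold rise, with an SD over members of 0.09 and a range from 0.11 to 0.44, beside an all-gene median of 0.00 and SD of 0.53. Every treated library lay above every untreated library for 31 of 31 members, an order found in 28.9% of all genes. Because members are abundant, with means of 1185 to 15257 normalized counts, the share called higher was also taken over the 5725 genes with a mean of at least 1000, a background chosen after the data were seen, and came to 28%. Over those 5725 genes the log2 fold change had a median of 0.01 and an SD of 0.30, a closer comparison for the members' SD. Together the 31 transcripts took 0.482% to 0.496% of all counts in untreated 4T1 libraries and 0.540% to 0.550% in treated ones. Scaled by total counts alone, which moved the median of all genes by -0.11, 19 members remained above the threshold and their median was 0.16. Rescaling shifts all genes of a comparison nearly alike. The distance of 0.27 between the members' median and that of all genes therefore could not change, and it is no check on scaling. The ribosomal precursor transcript Rn45s took 10.7% to 11.4% of the counts in untreated and 13.2% to 14.1% in treated 4T1 libraries, and with it left out of the totals the members' median was 0.20. Of the 7 epithelial markers 2 were higher and 3 lower after 17-DMAG in 4T1, the largest change being that of Cldn4 (-1.39 ± 0.11, adjusted p = 1.75e-13), and their summed level was 77403 to 78501 normalized counts untreated and 76538 to 76953 treated. The part of these markers in the result was not tested.

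**Figure D1:**
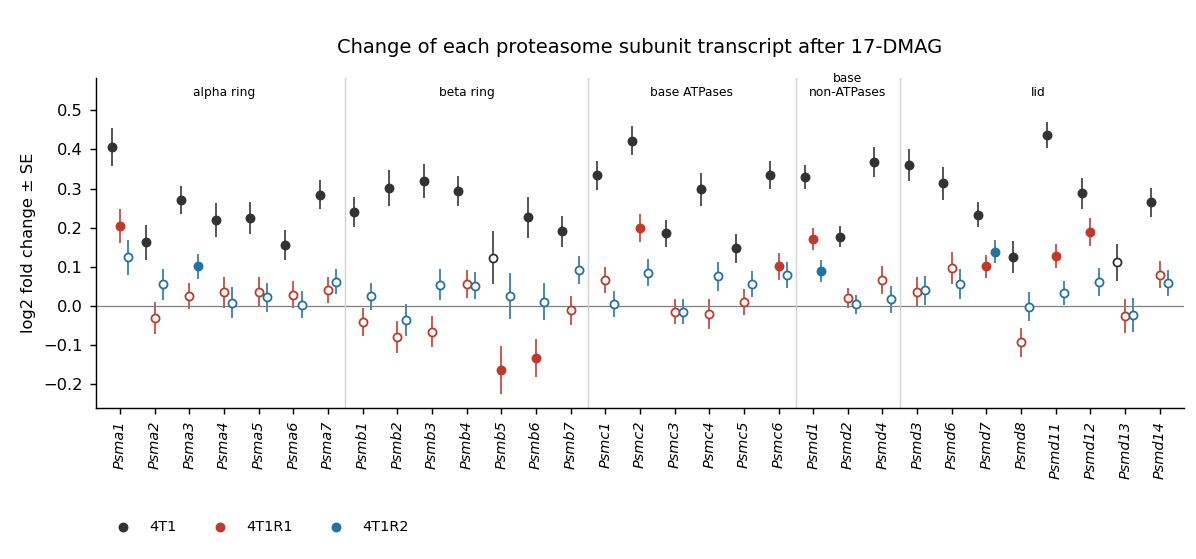
Log2 fold change after 17-DMAG (y axis) of each of the 31 subunit genes (x axis), grouped by subcomplex, in 4T1 (black), 4T1R1 (red) and 4T1R2 (blue); bars are standard errors and filled points passed an adjusted p of 0.05. All black points lie above 0, between 0.11 and 0.44, whereas the red and blue points lie around 0, between -0.16 and 0.20.

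The rise in 4T1 took in every subcomplex. All 7 alpha ring genes (median 0.22), 6 of 7 beta ring genes (0.24), all 6 base ATPases (0.32), all 3 base scaffold and receptor genes (0.33) and 7 of 8 lid genes (0.28) were higher. The lid scaffold Psmd11, whose product clamps lid, base and core to each other (chromosome 11, 80428615 to 80473248, plus strand), gave the largest change. Its normalized counts were 5784, 5691 and 5811 in the untreated libraries and 7659.9 in the averaged and 7944 in the remaining treated library. The groups did not overlap, and the log2 fold change was 0.44 ± 0.03 (SE, adjusted p = 5.26e-14). For Psmd11, 12.5% of the transcript's 50-base words also occur in a pseudogene, Gm14048, so some reads could have been shared with it.

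Psmc2, a base ATPase (chromosome 5, 21785283 to 21803787, plus strand), followed with 4729, 4725 and 4804 normalized counts untreated and 6201 and 6551 treated. That is a log2 fold change of 0.42 ± 0.04 (adjusted p = 3.13e-12), again with no overlap. The alpha ring gene Psma1 (chromosome 7, 114264606 to 114276118, minus strand) came next. It had 3204, 3301 and 3420.1 normalized counts without and 4243 and 4532 with 17-DMAG, a log2 fold change of 0.41 ± 0.05 (adjusted p = 4.2e-09).

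The ubiquitin receptor Psmd4 (chromosome 3, 95032694 to 95042614, minus strand) rose from 3559, 3792 and 3754 normalized counts to 4782 and 4774, a log2 fold change of 0.37 ± 0.04 (adjusted p = 2.6e-10). For the deubiquitinase Psmd14 (chromosome 2, 61711694 to 61800376, plus strand) the counts were 4691, 4569 and 4753 untreated and 5522 and 5705 treated, a change of 0.26 ± 0.04 on the log2 scale (adjusted p = 1.16e-07). Both genes thus separated the groups completely, the receptor by the wider margin.

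Among the catalytic subunits, Psmb6 and Psmb7 rose in 4T1 and Psmb5 did not pass the test. Psmb6, the caspase-like subunit (chromosome 11, 70525367 to 70527858, plus strand), had 2399, 2552 and 2585 normalized counts untreated and 2900.1 and 2983 treated (log2 fold change 0.23 ± 0.05, adjusted p = 0.000566). Psmb7, the trypsin-like subunit (chromosome 2, 38588036 to 38644087, minus strand), had 5006, 5279.9 and 5329.6 against 5862 and 6019 (0.19 ± 0.04, adjusted p = 0.000187). Psmb5, the chymotrypsin-like subunit (chromosome 14, 54614119 to 54618022, minus strand), had 1074, 1187 and 1115 against 1201 and 1253, which is 0.12 ± 0.07 (95% confidence interval -0.01 to 0.26, adjusted p = 0.155). The calls of Psmb6 and Psmb7 were lost when libraries were scaled by total counts (adjusted p = 0.0933 and 0.19). Some 54.1% of the 50-base words of Psmb5 recur in other annotated transcripts, mainly pseudogenes, and 34.9% of the exon length of Psmb7 is overlapped on the other strand by Nek6, whose reads cannot be separated from it if strand was not used in counting. The remaining member without a call was the lid scaffold Psmd13, with 2530.4, 2696 and 2383 normalized counts untreated and 2751 and 2725 treated (0.11 ± 0.05, adjusted p = 0.0634).

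**Figure D2:**
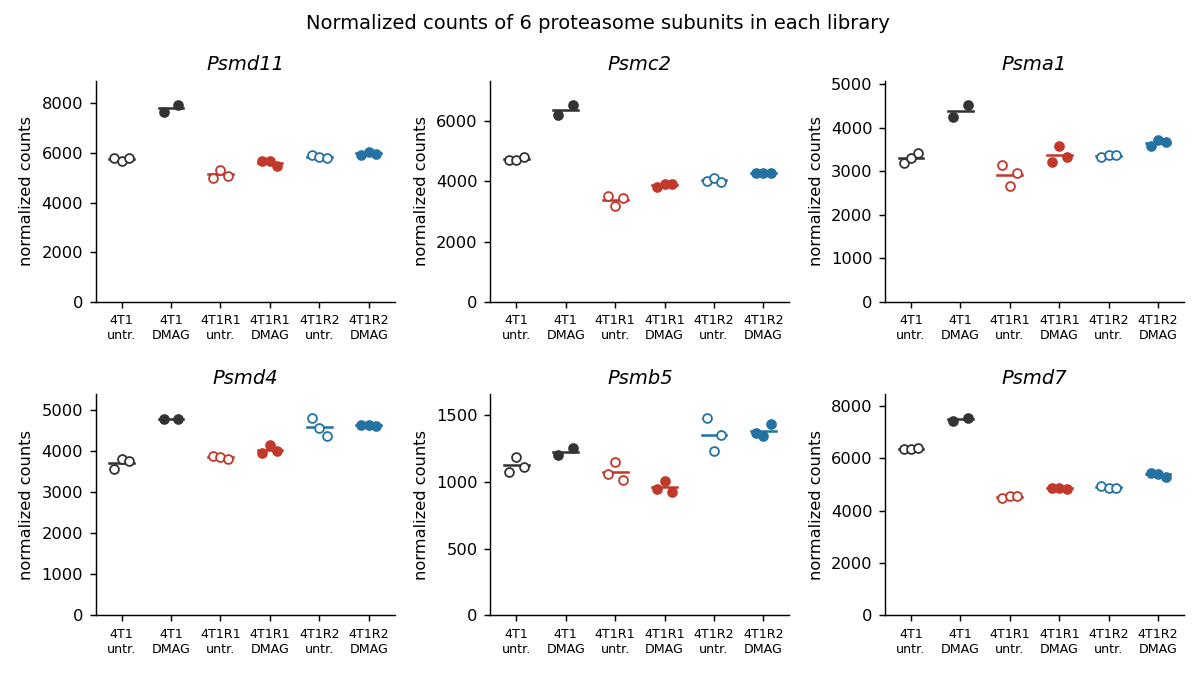
Normalized counts (y axis, from 0) of 6 subunit genes in each library, by group (x axis); open points are untreated, filled points 17-DMAG-treated, and the bars mark group means. For Psmd11, Psmc2, Psma1 and Psmd7 the treated 4T1 libraries stand above all the others. For Psmd4 the 4T1R2 libraries lie between 4369 and 4794, and only untreated replicate 1 reaches treated 4T1, at 4774 and 4782. For Psmb5 the 4T1R2 libraries lie above treated 4T1 in 5 of 6 libraries.

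In 4T1R1 the members did not move together after 17-DMAG. There, 7 members were higher, against 13.9% of all genes, and 2 were lower, against 14.3%, with a median log2 fold change of 0.03 and positive values in 20 of 31. Among genes with a mean of at least 1000, 23.1% were called higher. Every treated library stood above every untreated one for 10 members, against 18.8% of all genes, and below for 2, against 20.1%. Rn45s took 13.4% to 15.6% of the counts in untreated and 9.54% to 12.2% in treated 4T1R1 libraries. The 7 that rose were Psma1, the base ATPases Psmc2 and Psmc6, the base scaffold Psmd1 and the lid scaffolds Psmd7, Psmd11 and Psmd12. Of these, 6 belong to the 19S particle, which holds 17 of the 31 members, and the difference between the particles was not tested. Psma1 had 3141, 2665 and 2969 normalized counts untreated and 3214, 3575 and 3328 treated (0.20 ± 0.04, adjusted p = 0.000458). Psmc2 had 3528, 3175 and 3435 against 3832, 3911 and 3907 (0.20 ± 0.04, adjusted p = 3.27e-05), and Psmd12 (chromosome 11, 107479484 to 107504362, plus strand) had 4112, 4046 and 4064 against 4678, 4770.5 and 4492 (0.19 ± 0.04, adjusted p = 7.84e-05). None of these 3 genes overlapped between the groups, yet the treated 4T1R1 libraries stayed below the treated 4T1 libraries for each of them.

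The 2 members that fell in 4T1R1 were catalytic subunits. Psmb5 had 1062, 1153 and 1018 normalized counts untreated and 949, 1005 and 927 treated, a log2 fold change of -0.16 ± 0.06 with no overlap (adjusted p = 0.0422). Psmb6 had 2649, 2650.0 and 2371 untreated and 2220.3, 2329.7 and 2442 treated, a change of -0.13 ± 0.05 (adjusted p = 0.0332), and its groups overlapped. For Psmb7 the values were 4562, 4281 and 4466 against 4520.2, 4416 and 4263 (-0.01 ± 0.04, adjusted p = 0.859). The falls of Psmb5 and Psmb6 were close to the threshold: the number of lower members went to 0 under scaling by total counts, to 1 without treated replicate 2, and to 0 without untreated replicate 1, untreated replicate 2 or treated replicate 1. The call of Psmb5 was lost without treated replicate 3 as well (-0.14, adjusted p = 0.147).

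In 4T1R2 few members passed the test: 3 were higher, against 6.18% of all genes, and 0 lower, against 4.35%. No member was lower at an unadjusted p under 0.05 or by DESeq2. Their median log2 fold change was 0.05, and 11.7% of the genes with a mean of at least 1000 were called higher. All treated libraries lay above all untreated ones for 10 members, against 13.9% of all genes. Psmd7, the lid subunit that pairs with the deubiquitinase (chromosome 8, 107580381 to 107588464, minus strand), rose from 4956, 4864 and 4852 normalized counts to 5443, 5419.9 and 5291 (0.14 ± 0.03, adjusted p = 0.0012). The alpha ring gene Psma3 (chromosome 12, 70974621 to 70996347, plus strand) went from 4498, 4429 and 4333 to 4862, 4718 and 4649 (0.10 ± 0.03, adjusted p = 0.0347). The base scaffold Psmd1 (chromosome 1, 86064387 to 86139151, plus strand) went from 9278, 9177 and 8971 to 9691, 9996 and 9485 (0.09 ± 0.03, adjusted p = 0.0331). The groups did not overlap for any of the 3. Some 22.0% of the 50-base words of Psma3 and 8.36% of those of Psmd1 are shared with other annotated transcripts. Scaling by total counts left 0 of the 3 calls, and 1 call was left without untreated replicate 2, untreated replicate 3, treated replicate 1 or treated replicate 2.

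The catalytic subunits did not pass the test in 4T1R2. Psmb5 had 1479.9, 1229.8 and 1349.6 normalized counts untreated and 1369, 1345 and 1432 treated, and Psmb6 had 3009, 2808 and 2644 against 2887, 2701 and 2949.9. Psmb7 had 5216, 5026 and 4658 against 5213, 5294 and 5382. In all 3 the groups overlapped, and the log2 fold changes were 0.03 ± 0.06, 0.01 ± 0.05 and 0.09 ± 0.04. Psmd11, which had led the response in 4T1, had 5906, 5858 and 5797 without and 5923, 6059 and 5979 with 17-DMAG (0.03 ± 0.03, adjusted p = 0.587). Psmd4 had 4794, 4546 and 4369 against 4628, 4635 and 4613 (0.02 ± 0.03, adjusted p = 0.836), and Psmd14 had 3972, 3994 and 3774 against 4138, 4108 and 3984 (0.06 ± 0.03, adjusted p = 0.302).

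The difference between the responses was tested directly. The response of 4T1R1 was lower than that of 4T1 for 27 members, against 9.08% of all genes, and higher for 0, against 9.16%, with a median difference of -0.22 on the log2 scale. The response of 4T1R2 was lower than that of 4T1 for 24 members, against 8.16% of all genes, and higher for 0, against 9.62%, with a median difference of -0.22. Of the 5725 genes with a mean of at least 1000, 877 were lower and 871 higher in 4T1R1, and 722 lower and 890 higher in 4T1R2. No member had a positive difference in either comparison, and DESeq2 called 28 and 24 lower and 0 higher. These comparisons share the 4T1 libraries, and their values are given side by side. Psmd11 differed by -0.31 ± 0.05 in 4T1R1 (adjusted p = 2.74e-06) and by -0.40 ± 0.05 in 4T1R2 (adjusted p = 5.67e-09). Psmc2 differed by -0.22 ± 0.05 and -0.34 ± 0.05, and Psmd4 by -0.30 ± 0.05 and -0.35 ± 0.05, all past the threshold, but under scaling by total counts the call of Psmc2 in 4T1R1 was lost (-0.07, adjusted p = 0.375). Psmc2 is given for its large rise in 4T1, a choice that favours a smaller response elsewhere. Psmb5 differed by -0.29 ± 0.09 in 4T1R1 (adjusted p = 0.0216), a call lost, at -0.24 to -0.26, without untreated 4T1R1 replicate 2, treated 4T1R1 replicate 3, untreated 4T1 replicate 1 or treated 4T1 replicate 3, while in 4T1R2 the difference was -0.10 ± 0.09 (95% confidence interval -0.28 to 0.08, adjusted p = 0.517). Under scaling by total counts 7 and 14 members were lower, with the median of all genes itself at 0.15 and 0.07.

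The order of the members was partly shared between the populations. Across the 31 members the log2 fold changes in 4T1 and 4T1R1 had a Pearson r of 0.65, and those in 4T1 and 4T1R2 one of 0.37. These responses share no libraries, but the members share transcript abundance, base composition and the fit, and the values are given as a description. Psma1, Psmc2 and Psmd11 were among the 7 members called in 4T1R1, and Psmd1 and Psmd7 were called in all 3 populations.

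**Figure D3:**
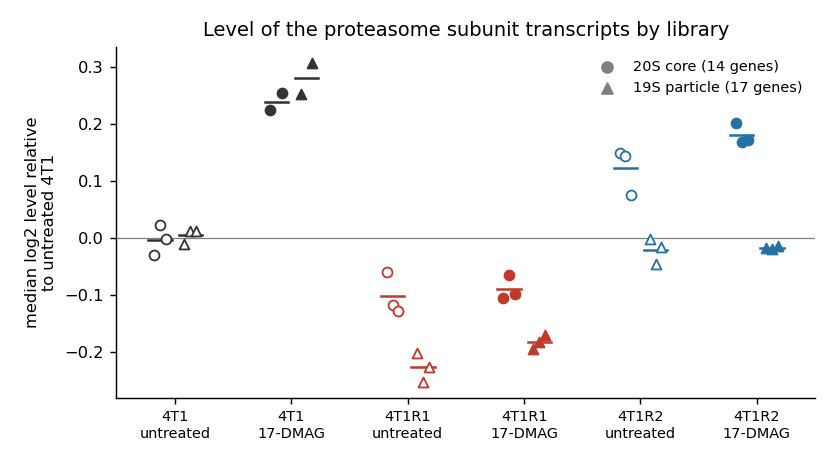
Median log2 level of the 14 core (circles) and 17 regulatory particle genes (triangles) in each library relative to the mean of untreated 4T1 (y axis), by group (x axis); open symbols are untreated, filled ones treated, and bars are group means. Treated 4T1 libraries lie at 0.22 to 0.31, the 4T1R1 libraries below 0 for both particles, and in 4T1R2 the core lies above 0 while the regulatory particle lies just below it.

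Taking the median of the 31 members in each library, relative to the mean of untreated 4T1, gave 0.24 and 0.28 in treated 4T1 and -0.02 to 0.01 in untreated 4T1. In 4T1R1 it was -0.17 to -0.12 untreated and -0.12 to -0.11 treated, and in 4T1R2 0.03 to 0.08 untreated and 0.09 to 0.11 treated. No library of either resistant population reached the level of the treated 4T1 libraries, and all 6 libraries of 4T1R1 lay below every untreated 4T1 library.

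Before treatment, the members were mostly lower in 4T1R1 than in 4T1. In untreated 4T1R1, 21 members were lower, against 27.5% of all genes, and 1 was higher, against 25.2%, with a median of -0.17. Of the 5725 genes with a mean of at least 1000, 2469 were lower and 1428 higher, with a median of -0.06. All 8 lid genes, 4 of 6 base ATPases and 5 of 7 alpha ring genes were lower, but only 2 of 7 beta ring genes, and the difference between these groups was not tested. The lid gene Psmd7 had 6362, 6361 and 6384 normalized counts in 4T1 and 4468, 4558 and 4556 in 4T1R1 (-0.49 ± 0.03, adjusted p = 8.7e-18). Psmc2 differed by -0.49 ± 0.04 (adjusted p = 2.42e-15), with the counts given above. For Psmd1 the counts were 11226, 11418 and 11274 against 8920.3, 8564 and 8525 (-0.38 ± 0.03, adjusted p = 4.14e-15). These 3 genes showed no overlap between the populations. The member that was higher, the beta ring gene Psmb2 (chromosome 4, 126677630 to 126709714, plus strand), had 2709.6, 2689 and 2702 against 3098, 3082 and 2879.5 (0.16 ± 0.04, adjusted p = 0.00109). Of the 7 epithelial markers 6 were lower in untreated 4T1R1 (median -0.73), with a summed level of 51597 to 54096 normalized counts, and their part in the result was not tested. Rn45s took 13.4% to 15.6% of the counts in untreated 4T1R1 against 10.7% to 11.4% in untreated 4T1. With Rn45s left out of total-count scaling, 4 members were higher and the median was -0.09, beside 0.09 for all genes.

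In untreated 4T1R2 the members moved both ways. There, 14 were higher than in 4T1, against 25.6% of all genes, and 6 were lower, against 26.9%, with a median of 0.06, or 0.03 without untreated 4T1R2 replicate 1. Of the 5725 genes with a mean of at least 1000, 1778 were higher and 2127 lower. By particle, 10 of 14 core genes were higher and none lower (also at an unadjusted p under 0.05), with a median of 0.14, whereas 4 of 17 regulatory particle genes were higher and 6 lower, with a median of -0.03. Within the lid, 4 of 8 genes were lower. The difference between the particles was not tested. Of the 7 epithelial markers 5 were lower and 1 higher in untreated 4T1R2 (median -0.42), with a summed level of 59660.2 to 60859 normalized counts, and their part in the result was not tested either. Psmd4 had 3559, 3792 and 3754 normalized counts in 4T1 and 4794, 4546 and 4369 in 4T1R2 (0.31 ± 0.04, adjusted p = 1.32e-09). Psmb5 (0.27 ± 0.06, adjusted p = 0.000221) had its lowest 4T1R2 library, at 1229.8, above its highest 4T1 library, at 1187. The alpha ring gene Psma6 (chromosome 12, 55384222 to 55418454, plus strand) had 5627, 5922 and 5661 against 6746, 6824 and 6721 (0.24 ± 0.03, adjusted p = 2.02e-07).

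The members that were lower in untreated 4T1R2 were the lid genes Psmd3, Psmd7, Psmd12 and Psmd14, the base scaffold Psmd1 and the ATPase Psmc2. Psmd7 gave the largest difference, at -0.38 ± 0.03 (adjusted p = 2.62e-14), followed by Psmd1 at -0.31 ± 0.03 (adjusted p = 2.71e-12) and Psmd14 at -0.26 ± 0.03 (adjusted p = 2.27e-08). Each of these 6 was also lower in untreated 4T1R1, where Psmd14 had 3801, 3782 and 3724 normalized counts (-0.31 ± 0.03, adjusted p = 2.07e-10); both comparisons use the same untreated 4T1 libraries.

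**Figure D4:**
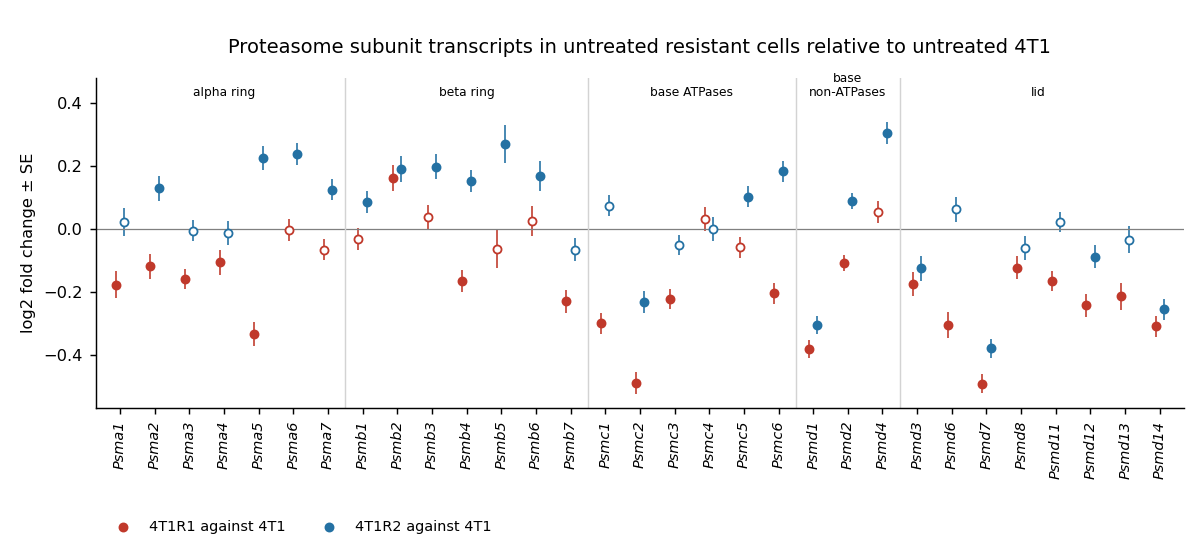
Log2 fold change of each subunit gene (x axis, grouped by subcomplex) in untreated 4T1R1 (red) and untreated 4T1R2 (blue) relative to untreated 4T1 (y axis); bars are standard errors and filled points passed an adjusted p of 0.05. Red points lie mostly below 0, down to -0.49 for Psmd7 and Psmc2, while blue points of the alpha and beta rings lie mostly above 0 and 4 blue points of the lid are filled below it.

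Set against each other, the untreated resistant populations differed in 25 members, all higher in 4T1R2, against 19.7% of all genes, with a median of 0.17. None was lower, against 19% of all genes, nor at an unadjusted p under 0.05 or by DESeq2. Of the 5725 genes with a mean of at least 1000, 1923 were higher and 1215 lower in 4T1R2. The alpha ring gene Psma5 (chromosome 3, 108256926 to 108279974, plus strand) had 3177, 2848 and 3031 normalized counts in 4T1R1 and 4526, 4571 and 4276 in 4T1R2 (0.56 ± 0.04, adjusted p = 1.45e-15). It was lower than 4T1 in 4T1R1 (-0.34 ± 0.04, adjusted p = 7.73e-10) and higher in 4T1R2 (0.23 ± 0.04, adjusted p = 2.36e-06), and 54.5% of its 50-base words recur in pseudogenes. The ATPase genes Psmc6 (chromosome 14, 45329788 to 45349705, plus strand) and Psmc1 (chromosome 12, 100110154 to 100123405, plus strand) followed. Psmc6 had 4623, 4275 and 4351 against 5813, 5814 and 5724 (0.39 ± 0.03), and Psmc1 had 5427, 5079.9 and 5301 against 6993, 6826 and 6672 (0.37 ± 0.03). These 3 genes did not overlap between the populations.

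Divided by the length of the principal transcript, the members differed in level by a factor of 7.05 in untreated 4T1. The highest was Psma7 with 7095 ± 42.7 normalized counts per kb (SD, n = 3), followed by Psma6 with 5506 ± 155, and the lowest were Psma2 with 1006 ± 25.9, Psmb5 with 1252 ± 63.7 and Psmd13 with 1275 ± 78.6. Psmb5 and Psmd13 do not differ beyond their spread. The median was 2951 normalized counts per kb, and 27 of the 31 lay within 2-fold of it. Medians by subcomplex were alike, at 2899 for the alpha ring, 3148 for the beta ring, 2865 for the base ATPases, 3633 for the other base genes and 2549 for the lid. The lengths come from one annotated transcript per gene, so that other isoforms or shared pseudogene sequence, as in Psmb5, move these levels.

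Other genes of the pathway are described from lists of related genes. Beside their counts, 18.4% of all genes were called higher in 4T1, and 28% of those with a mean of at least 1000. Adrm1, another ubiquitin receptor of the base, had 2910.5, 3011 and 3108 normalized counts in untreated and 4098 and 4275 in treated 4T1 (0.47 ± 0.06, adjusted p = 4.08e-09), and 0.04 ± 0.05 and 0.03 ± 0.05 in 4T1R1 and 4T1R2. With Usp14, a deubiquitinase that binds the base (0.21 ± 0.05, adjusted p = 0.0006), 2 of 5 other 19S and associated genes rose in 4T1. Usp14 also rose in 4T1R1 (0.17 ± 0.04, adjusted p = 0.0032), and its change in 4T1R2 was 0.08 ± 0.04 (adjusted p = 0.282). Of 8 assembly chaperones 2 were higher in 4T1, a share near that of all genes: Psmg3 (0.51 ± 0.08) and Psmd5 (0.34 ± 0.05). Psmg3 was called in all 3 populations, with 0.33 ± 0.08 in 4T1R1 and 0.32 ± 0.08 in 4T1R2, starting from untreated levels that were lower than in 4T1 (-0.65 ± 0.08 and -0.64 ± 0.08). The untreated libraries of each resistant population enter both its rise and its lower level.

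Pomp, the chaperone that matures the core, did not pass the test for any response (0.08 ± 0.04, -0.05 ± 0.04 and 0.04 ± 0.04 in 4T1, 4T1R1 and 4T1R2). Its untreated level was lower in both resistant populations, with 3319.6, 3262 and 3519.6 normalized counts in 4T1, 2254, 2086 and 2099.5 in 4T1R1 (-0.65 ± 0.04, adjusted p = 4.78e-17) and 2499, 2453 and 2361 in 4T1R2 (-0.47 ± 0.04, adjusted p = 9.97e-13). All 4 genes of activators and the inhibitor rose in 4T1, against 18.4% of all genes. The largest change was that of AI314180, the older symbol of the proteasome adaptor Ecpas (0.35 ± 0.03, adjusted p = 3.04e-11).

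The inducible subunits that replace the catalytic ones did not rise with them. None of the 5 genes of the immunoproteasome and the PA28 activator was called in 4T1, where Psmb10 had an unadjusted p of 0.0477 (-0.16 ± 0.08, adjusted p = 0.11). Psmb8, the inducible counterpart of Psmb5, had 462, 416 and 381 normalized counts in untreated and 410.4 and 429.9 in treated 4T1. In untreated 4T1R1 it had 943, 989 and 923 (1.18 ± 0.07 against 4T1, adjusted p = 2.84e-17) and in untreated 4T1R2 492, 490.3 and 461 (0.20 ± 0.08, adjusted p = 0.0337). Psmb9, the counterpart of Psmb6, was scarce, with 17, 20.3 and 25 in 4T1, 72, 105 and 79 in 4T1R1 (2.03 ± 0.28, adjusted p = 4.98e-08) and 34, 48 and 41 in 4T1R2 (0.96 ± 0.31, adjusted p = 0.00796). Psmb10, the counterpart of Psmb7, did not pass the test before treatment (-0.11 ± 0.07 in 4T1R1 and -0.07 ± 0.07 in 4T1R2). After 17-DMAG, Psmb8 and Psmb10 fell in 4T1R1, with -0.20 ± 0.07 (adjusted p = 0.0267) and -0.24 ± 0.07 (adjusted p = 0.00923). For Psmb8 the untreated 4T1R1 libraries enter both this fall and the higher untreated level.

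**Figure D5:**
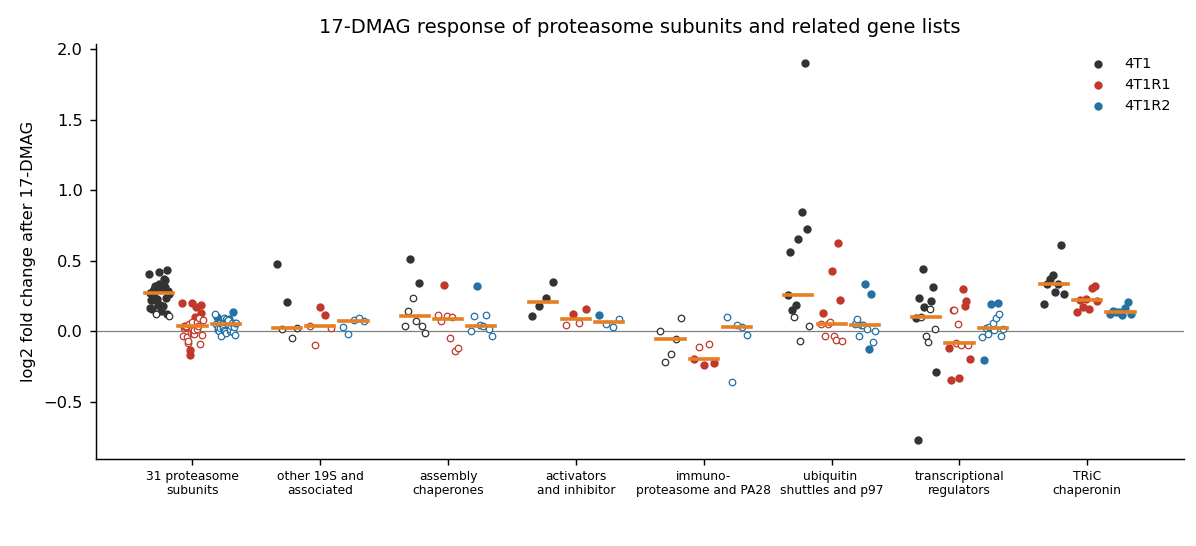
Log2 fold change after 17-DMAG (y axis) of every tested gene in the 31 subunits and in 7 lists of related genes (x axis), in 4T1 (black), 4T1R1 (red) and 4T1R2 (blue); filled points passed an adjusted p of 0.05 and orange bars are list medians. The subunit median falls from 0.27 in 4T1 to 0.03 and 0.05 in the resistant populations. All 8 TRiC genes are filled above 0 in each population, and their median falls from 0.34 to 0.22 and 0.14.

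Several genes of shuttle factors and ubiquitin receptors had larger fold changes than any subunit. Of 11 tested genes for shuttle factors and the p97 segregase, 8 rose in 4T1, against 18.4% of all genes. The largest rise was that of Zfand2a, which encodes an arsenite-inducible protein that binds the proteasome: it had 1341, 1349 and 1516 against 5109 and 5404 (1.90 ± 0.05), then 0.63 ± 0.05 in 4T1R1 and 0.27 ± 0.05 in 4T1R2. Sqstm1, an autophagy receptor that binds ubiquitin, rose in 4T1 (0.85 ± 0.03, adjusted p = 1.56e-23), and was already higher in untreated 4T1R1 (1.20 ± 0.03) and 4T1R2 (1.45 ± 0.03). Its response was -0.06 ± 0.03 in 4T1R1 (adjusted p = 0.134), and in 4T1R2 it fell (-0.12 ± 0.03, adjusted p = 0.00336). These responses and the higher untreated levels share the untreated libraries of each resistant population. The shuttle Ubqln1 rose in each population, by 0.65 ± 0.03, 0.43 ± 0.03 and 0.33 ± 0.03. Zfand5, of the same list, had mean normalized counts of 1970 in untreated and 3259 in treated 4T1. Its means were 1874 untreated and 2182 treated in 4T1R1, and 2256 and 2139 in 4T1R2.

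Among 13 genes of transcriptional regulators of the proteasome, 6 rose and 2 fell in 4T1, against 18.4% and 17.9% of all genes. Nfe2l1 had 6842, 7128 and 7045 normalized counts untreated and 7513 and 7448 treated in 4T1 (0.09 ± 0.03, adjusted p = 0.022), a change smaller than the shift of all genes under scaling by total counts. It fell in 4T1R1 (-0.12 ± 0.03, adjusted p = 0.00229), where its untreated level was higher than in 4T1 (0.37 ± 0.03, adjusted p = 6.48e-14), and its change in 4T1R2 did not pass the test (-0.04 ± 0.03). The untreated 4T1R1 libraries enter both the fall and the higher level. Mafg, a partner of NRF1, rose in 4T1 (0.44 ± 0.06), whereas Nfe2l2, encoding NRF2, fell in all 3 populations (-0.77 ± 0.05 in 4T1, -0.34 ± 0.04 in 4T1R1 and -0.20 ± 0.04 in 4T1R2). All 8 genes of the chaperonin TRiC, another cytosolic complex of many subunits, were called higher in each of the 3 populations, with medians of 0.34, 0.22 and 0.14 on the log2 scale. Of all genes 18.4%, 13.9% and 6.18% were called higher. The medians of the proteasome members in the same comparisons were 0.27, 0.03 and 0.05, and the difference between the complexes was not tested. The response of TRiC was itself lower than in 4T1 for 5 of 8 genes in 4T1R1 and 7 of 8 in 4T1R2, with 0 higher. The median differences were -0.12 and -0.18, and 9.08% and 8.16% of all genes were lower. Of the 11 tested shuttle and p97 genes 7 were lower in each, with 0 higher.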

How the data were processed

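Total RNA from 4T1, 4T1R1 and 4T1R2 cultures, untreated or treated with 17-DMAG, was depleted of ribosomal RNA and sequenced in 18 libraries, which the series describes as biological replicates. The authors aligned the reads to mm10/GRCm38 with STAR, counted reads per gene with featureCounts (Subread 1.6.2 per the labels' processing notes) and deposited whole-number counts without normalization in 1 table. The authors' own normalization and tests were done with DESeq2. Whether counting used strand, how multiply matching reads were handled and which STAR version was run are not given in the sources used here. The number of columns left unused was 0.

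The deposited counts entered edgeR 4.0.16 (R 4.3.3), with filterByExpr, TMM scaling, a mean for each group and the quasi-likelihood test, with Benjamini-Hochberg adjustment over 13507 genes and a threshold of 0.05. A normalized count is the count over the TMM-scaled size of its library, that size being taken relative to the mean library. Counts of treated 4T1 replicates 1 and 2 were averaged, since their chi-square per gene was 1.10, against 2.04 to 2.22 in 17 other pairs from the same groups. The members and gene lists were chosen with earlier results of these data known. Values per library are given for Psmb5, Psmb6, Psmb7, Psmd4, Psmd11, Psmd14 and, in each response and untreated comparison, the 3 called members with the largest rise and fall; from other lists at most 3 called genes per comparison are named, and always Nfe2l1, Pomp, Usp14, Psmb8, Psmb9 and Psmb10. A gene of another list that is named for its change in a given comparison may also be given in the others. Psmd13 and the members highest and lowest in level per kb were named after their values were seen.

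Positions, lengths of the principal transcript and 50-base words shared with other transcripts come from GENCODE vM21 (GRCm38), and promoters from RefSeq. Alternatives were other scalings, other filters, DESeq2 1.42.0, fits of the compared groups or of 18 separate libraries, a block on replicate number and the omission of each library. The results of 1 list of related genes are not reported here. The code was tested on simulated data. Confidence intervals are at 95% and cover the spread between these libraries.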

Additional observations from a re-analysis of the deposited data

Results flagged for a closer look

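The response to 17-DMAG differed from that of 4T1, by edgeR's test of the difference itself, for 8 members in 4T1R1 and 8 in 4T1R2 among those given by library for the response of 4T1 or of that population. Over all genes 9.08% were lower and 9.16% higher in 4T1R1, and 8.16% lower and 9.62% higher in 4T1R2. Psmd12 in 4T1R1 and Psmb5, Psmb7 and Psmd7 in 4T1R2, also given by library, were not among the 8. Psmc2 and Psma1 are given for their large rises in 4T1, a choice that favours a smaller response elsewhere. In 4T1R1 the log2 differences were -0.29 for Psmb5, -0.36 for Psmb6 and -0.20 for Psmb7, the catalytic subunits, -0.30 for the ubiquitin receptor Psmd4, -0.18 for the deubiquitinase Psmd14, -0.31 for the lid scaffold Psmd11, -0.22 for the ATPase Psmc2 and -0.20 for the alpha ring gene Psma1. In 4T1R2 they were -0.22 for Psmb6, -0.35 for Psmd4, -0.21 for Psmd14, -0.40 for Psmd11, -0.34 for Psmc2, -0.28 for Psma1, -0.17 for Psma3 and -0.24 for Psmd1. Each of these 16 differences is a smaller rise, or a fall, in the resistant population. The 4T1 libraries enter both sets of differences. With at most 3 libraries per group, no group was large enough to be examined for a single library apart from the rest. For 6 of the 16 differences the call was lost without treated 4T1 replicate 3, which left the averaged sample alone in its group, assumed to vary like the others. The differences were then -0.26 for Psmb5, -0.18 for Psmb7, -0.16 for Psmd14 and -0.15 for Psma1 in 4T1R1, and -0.19 for Psmb6 and -0.15 for Psma3 in 4T1R2. Psma1 in 4T1R1 also lost its call without untreated or treated replicate 1 or treated replicate 3 of 4T1R1, or untreated 4T1 replicate 1 (-0.15 to -0.19). Psmb6 in 4T1R2 also lost it without untreated replicate 1 or treated replicate 2 of 4T1R2, untreated 4T1 replicate 1 or the averaged treated 4T1 sample (-0.16 to -0.24). Psmb5 in 4T1R1 also lost it without untreated replicate 2 or treated replicate 3 of 4T1R1 or untreated 4T1 replicate 1 (-0.24 to -0.26). Under scaling by total counts 8 of the 16 calls were lost: Psmb5 (-0.14), Psmb7 (-0.05), Psmd14 (-0.03), Psmc2 (-0.07) and Psma1 (-0.05) in 4T1R1, and Psmb6 (-0.15), Psmd14 (-0.14) and Psma3 (-0.10) in 4T1R2. With Rn45s left out of the totals 4 were lost, Psmb5 (-0.24) and Psma1 (-0.15) in 4T1R1 and Psmb6 (-0.17) and Psma3 (-0.13) in 4T1R2.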

How the results depend on the processing

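The direction of the members' median was kept in every comparison under every alternative run. In 4T1 its distance from the median of all genes was 0.27 under each scaling, which rescaling fixes in advance, so it is no check. Under scaling by total counts the members called higher were 19 in 4T1 (median 0.16), 11 in 4T1R1 (0.068, with 0 lower) and 0 in 4T1R2 (0.0054). The responses called lower than in 4T1 were then 7 in 4T1R1 (median -0.067) and 14 in 4T1R2 (-0.15), and some members changed sign: Psmb7 in 4T1R1 (0.022), Psmb5 (-0.021), Psmb6 (-0.036), Psmd4 (-0.030) and Psmd11 (-0.014) in 4T1R2, and the difference of Psmd12 between 4T1R1 and 4T1 (0.051). With Rn45s left out of the totals, the medians were 0.20 in 4T1, 0.020 in 4T1R2 (1 higher), -0.086 for untreated 4T1R1 (4 higher), 0.12 for untreated 4T1R2 minus 4T1R1 and -0.17 for the 4T1R1 difference, and 4 members were lower in treated 4T1R1. Psmb5 (-0.0064), Psmb6 (-0.021) and Psmd4 (-0.016) in 4T1R2, Psmb5 in untreated 4T1R1 (0.016) and Psmd14 between the resistant populations (-0.0024) then changed sign. A fit of the compared groups alone left 1 member lower in 4T1R1. Omitting single libraries gave 0 to 3 lower in 4T1R1, 1 to 4 higher in 4T1R2, medians of 0.24 to 0.29 in 4T1 and 0.030 to 0.091 for untreated 4T1R2, and fold changes on both sides of 0 for Psmb7 in 4T1R1 (-0.036 to 0.010), for Psmb5 (-0.036 to 0.098), Psmb6 (-0.031 to 0.062) and Psmd4 (-0.012 to 0.053) in 4T1R2 and for Psmb6 in untreated 4T1R1 (-0.0076 to 0.077). The cause of these changes was not tested. With a replicate block on 18 separate libraries, 30 members were higher in 4T1, 7 in 4T1R1 and 3 in 4T1R2; same-numbered libraries did not deviate together (0 of 45 pairs with a correlation over 0.1), so the number was not used as a pairing.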
